A study of Homo sapiens with 4 samples.

Results

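Among the 3 RNA-seq libraries labelled as HYDIN2 knockdown, replicates 1 and 2 were nearly alike and replicate 3 stood apart from both, and the genes that separate replicate 3 from the other two are described here. Every gene with a mean of at least 1 CPM over these 3 libraries was taken, which gave 16001 of the 62696 genes counted, and its log2 CPM in replicate 3 was set against that in replicate 1 and in replicate 2. CPM divides each count by its library's scaled total, so that libraries of unequal depth can be compared. A gene was taken as higher or lower when replicate 3 lay at least 2-fold from both libraries in the same direction, which 1086 genes did upwards (6.79% of those tested) and 2082 did downwards (13.0%), 3168 in all (19.8%). These same values chose the genes, and 1 library is set against 2, so every value below is a description of these libraries, with no test and no statement about the knockdown. Replicates 1, 2 and 3 are named as they are labelled.

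The cells are NT2, also named NTERA-2, an established human embryonal carcinoma line. The labels give 1 library of cells with an empty vector and the genotype wild type, used here only as a reference level, and 3 libraries with the genotype HYDIN2 knockdown. All 4 were grown in the same serum-containing medium, and total RNA was depleted of ribosomal RNA before strand-specific libraries were made. The knockdown reagent, the part of HYDIN2 it acts on, the time after it, and whether replicates 1 to 3 were separate cultures are not given in the sources used here. The count columns in the tables carry other names, a LacZ control and numbered GKAP_KIF27 sets. KIF27 itself, a kinesin gene, stood at 4.92 CPM with the empty vector, 4.00 and 4.04 CPM in replicates 1 and 2 and 4.42 CPM in replicate 3.

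Embryonal carcinoma cells resemble the pluripotent cells of the early embryo. They are held in that state by transcription factors such as POU5F1, SOX2 and NANOG, and signals of the WNT, NODAL, BMP and FGF families move them towards the germ layers. Apart from such state genes, cultured cells carry programs that read their nutrients. Glucose-derived metabolites act through MondoA and ChREBP on TXNIP and ARRDC4, and shortage of amino acids or stress in the endoplasmic reticulum acts through the transcription factor ATF4 on genes of amino acid supply.

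The targeted gene was itself among the lower genes. HYDIN2 (ENSG00000276975.4; chr1:146472566-146914294 on the plus strand of GRCh38), a transcribed pseudogene copied in part from the motile cilium gene HYDIN, had 150 and 112 counts in replicates 1 and 2, 11 in replicate 3 and 12 in the empty vector library. These are 2.41, 1.88, 0.352 and 0.4999 CPM, and replicate 3 lay at 0.164 times the pooled level of replicates 1 and 2 (95% interval 0.0476 to 0.357, counting error only). HYDIN2 thus goes against the label in replicates 1 and 2, which lay above the empty vector library, and in replicate 3, with 11 counts against 12, no difference from that library was detectable at this depth. HYDIN stood at 5.62 CPM with the empty vector, 8.67 and 8.06 CPM in replicates 1 and 2 and 4.26 CPM in replicate 3, and its log2 differences of -1.02 and -0.91 left it outside the rule. The copies share sequence, so reads may be assigned to either, and both levels are uncertain.

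The libraries differed in depth, with 62904698 and 61627449 counts in replicates 1 and 2, 28552070 in replicate 3 and 25181737 in the empty vector library. Between replicates 1 and 2, 46 of the 16001 genes (0.287%) were 2-fold apart, and the SD over genes of their log2 difference was 0.21, against 0.93 for replicate 3 minus their mean. The 2 libraries still differed by more than sampling noise: the mean squared difference in units of the sampling variance was 6.40 over these genes, where sampling alone gives a value near 1, and 111 for replicate 1 against replicate 3. At 4-fold from both, 184 genes were higher (1.15%) and 441 lower (2.76%), and at 16-fold 4 were higher (0.025%) and 38 lower (0.237%). The median over all tested genes was -0.16, and the balance of higher to lower genes moved with the scaling. Higher genes were 34.3% of all genes past the rule with TMM factors, 47.7% with total counts (1475 higher, 1620 lower), 52.1% with upper quartile factors (1607 and 1479) and 27.5% with TMM factors from all genes (922 and 2430). A minimum on the mean of 3 libraries also lets genes high in replicates 1 and 2 through more easily than genes high in replicate 3 alone. On the lower side NUDT8 (-1.17 and -1.0010 to replicates 1 and 2) and PATJ (-1.0010 and -1.05) lay just inside the threshold, and SEC61G (-0.9997 and -1.22) and COMMD10 (-0.9990 and -1.08) just outside. On the higher side NLGN3 (1.0001 and 1.32) and AFG3L1P (1.0006 and 1.38) lay inside and ZNF117 (0.9986 and 1.0931) and ZDHHC5 (0.9994 and 1.03) outside.

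**Figure D1:**
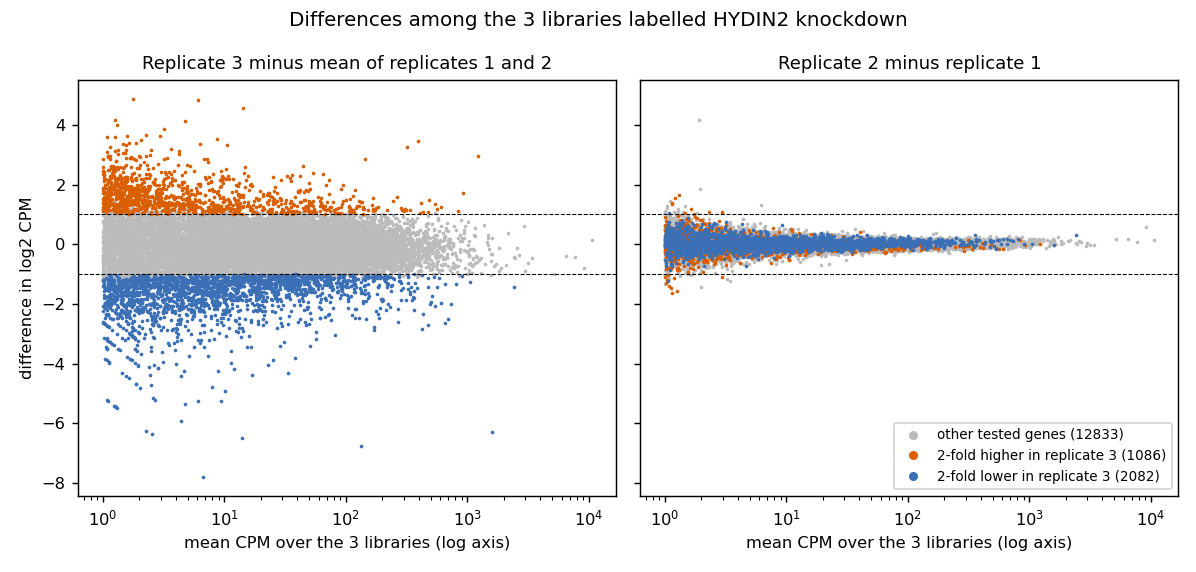
Difference in log2 CPM (vertical) against mean CPM over the 3 labelled knockdown libraries (horizontal, log axis) for 16001 genes, as replicate 3 minus the mean of replicates 1 and 2 (left) and replicate 2 minus replicate 1 (right). Each point is 1 gene, coloured by the 2-fold rule of the left panel; dashed lines mark 2-fold, and the spread on the left (SD 0.93) exceeds that on the right (SD 0.21).

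The lowest genes relative to replicates 1 and 2 included the alpha-arrestins, membrane-trafficking adaptors that include the inhibitor of glucose uptake TXNIP. TXNIP (ENSG00000265972.6; chr1:145992435-145996600 on the minus strand of GRCh38) stood at 165 CPM with the empty vector, 2375.5 and 2357 CPM in replicates 1 and 2 and 29.9951 CPM in replicate 3. Replicate 3 was 78.9-fold below the mean of replicates 1 and 2, with the empty vector library in between. ARRDC4, which like TXNIP limits glucose uptake, stood at 10.7 CPM with the empty vector, 199 and 202 CPM in replicates 1 and 2 and 1.79 CPM in replicate 3, a 112-fold gap with the same order of libraries. ARRDC3, an adaptor for receptor endocytosis, had 58.7 CPM with the empty vector, 210.0 and 199 CPM in replicates 1 and 2 and 35.8 CPM in replicate 3. The other members tested were not past the rule, ARRDC2 with log2 differences of -1.03 and -0.85 and ARRDC1 with 0.42 and 0.52. So 3 of 5 were lower and 0 higher, in a list chosen after the values were seen.

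Promoter sequences are shown for these genes and for a stress gene and a chaperone described further on, because each gene is a textbook target of a factor with a known binding sequence. They are the 250 bases before the gene start in RefSeq on GRCh38.p14, written 5′ to 3′ along the gene's own strand. The GENCODE 29 annotation places its outermost start upstream of RefSeq's in all 4 genes. Capitals mark matches to the motif searched for that gene, on either strand: 2 copies of CACGNG with 5 bases between them, a spaced pair as in carbohydrate response elements, in TXNIP, CACGTG, the E-box, in ARRDC4, TGATGNAA, the core of ATF and C/EBP composite sites, in CHAC1, and GAANNTTC, the core of heat shock elements, in HSPA8.
TXNIP (chr1:145996580-145996829 on the minus strand): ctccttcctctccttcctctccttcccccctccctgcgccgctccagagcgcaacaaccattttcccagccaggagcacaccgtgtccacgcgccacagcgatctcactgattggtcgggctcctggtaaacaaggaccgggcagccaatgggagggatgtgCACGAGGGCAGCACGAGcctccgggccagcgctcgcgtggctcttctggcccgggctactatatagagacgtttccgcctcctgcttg
ARRDC4 (chr15:97960453-97960702 on the plus strand): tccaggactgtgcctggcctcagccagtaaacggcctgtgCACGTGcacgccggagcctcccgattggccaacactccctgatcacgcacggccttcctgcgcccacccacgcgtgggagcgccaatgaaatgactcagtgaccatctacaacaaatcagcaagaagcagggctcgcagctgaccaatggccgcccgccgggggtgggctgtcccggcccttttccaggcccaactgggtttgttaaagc
CHAC1 (chr15:40953221-40953470 on the plus strand): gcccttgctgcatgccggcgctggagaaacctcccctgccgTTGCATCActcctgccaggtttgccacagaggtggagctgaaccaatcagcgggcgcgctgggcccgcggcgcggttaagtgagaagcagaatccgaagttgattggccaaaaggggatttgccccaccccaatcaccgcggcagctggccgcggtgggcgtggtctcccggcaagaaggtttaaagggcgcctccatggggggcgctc
HSPA8 (chr11:123062137-123062386 on the minus strand): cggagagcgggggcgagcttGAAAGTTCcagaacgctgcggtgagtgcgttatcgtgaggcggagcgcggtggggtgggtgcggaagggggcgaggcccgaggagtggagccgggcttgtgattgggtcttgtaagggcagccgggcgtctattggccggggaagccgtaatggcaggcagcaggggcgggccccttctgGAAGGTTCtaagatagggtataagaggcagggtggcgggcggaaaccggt
The match began 88 bases before the start in TXNIP, 210 in ARRDC4 and 209 in CHAC1, and HSPA8 had 2 matches, 230 and 50 bases before it. The spaced pair was present in 16 of the 27305 windows of this length in the table (0.0586%), in 12 of the 11599 tested genes that have a window, and in 4 of 1436 lower genes. CACGTG, which also satisfies either end of that pair, was in 6.49% of all windows, 8.52% of tested genes and 6.41% of lower genes. TGATGNAA was in 3.19%, 1.47% and 2.30% of the same groups, and GAANNTTC in 5.85% of all windows, 4.13% of tested genes and 5.91% of 575 higher genes. The genes printed were chosen after the matches were known, and the spaced pair was added once CACGTG had been found absent from the TXNIP window. Neither motif was in the window of ARRDC3, TGATGNAA was in 3 of 6 stress genes searched (not in TRIB3, DDIT3 or SESN2), in 4 of the 27 genes of the whole ATF4 list with a window (14.8%) and in 3 of its 15 lower ones, and GAANNTTC in 2 of 5 genes searched (not in HSPH1, DNAJB1 or MAT2A). A match is a description of letters, not a site shown to be bound.

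Genes that ATF4 and the unfolded protein response are known to raise were lower in replicate 3. Of 30 listed genes, all tested, 18 were lower and 0 higher, with a median log2 difference of -1.23 against -0.16 for all genes. TRIB3, a pseudokinase that restrains AKT and ATF4, stood at 30.5 CPM with the empty vector, 79.7 and 80.7 CPM in replicates 1 and 2 and 8.93 CPM in replicate 3. CHAC1, which degrades glutathione, had 18.7 CPM with the empty vector, 40.8 and 42.1 CPM in replicates 1 and 2 and 6.18 CPM in replicate 3, and DDIT4, an inhibitor of mTORC1, had 27.3 CPM with the empty vector, 42.4 and 36.6 CPM in replicates 1 and 2 and 7.07 CPM in replicate 3. In all 3, replicate 3 was the lowest library and the empty vector library lay between it and replicates 1 and 2. SLC7A11, the cystine importer, was also lower (41.0 CPM with the empty vector, 364 and 358 CPM in replicates 1 and 2 and 81.1 CPM in replicate 3), but here the empty vector library was the lowest. ATF3, a stress-induced transcription factor, and STC2, a secreted glycoprotein, had log2 differences to replicates 1 and 2 of -2.18 and -2.18 and of -2.14 and -2.10, respectively.

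Most of that list's genes of serine and one-carbon metabolism were lower: PSAT1, which makes phosphoserine, at 955 and 1072 CPM in replicates 1 and 2 against 399 CPM in replicate 3, and with log2 differences PSPH (-1.75 and -1.82), MTHFD2 (-1.53 and -1.58) and SHMT2 (-1.40 and -1.55), while PHGDH, the first enzyme of serine synthesis, was outside the rule (-0.68 and -0.77). DDIT3, the death-promoting factor CHOP, had -1.99 and -2.05, and ASNS, asparagine synthetase, with -1.13 and -0.98, was just short of the rule. The message of ATF4 itself stood at 645 CPM with the empty vector, 319.7 and 334 CPM in replicates 1 and 2 and 339 CPM in replicate 3, with log2 differences of 0.09 and 0.02. Some genes of the endoplasmic reticulum were outside the rule: HSPA5, the reticulum's main HSP70, had differences of 0.83 and 0.92, SDF2L1 had 0.84 and 0.64 and PDIA4, a disulfide isomerase, had 0.47 and 0.51. Others were lower: XBP1 (-1.12 and -1.23), HERPUD1 (-1.18 and -1.24) and DNAJB9, a co-chaperone of folding there (-1.13 and -1.03). The cytosolic aminoacyl-tRNA synthetases, which charge tRNAs with amino acids and were listed after the values were seen, had 5 of 20 lower and 0 higher, and 19 of 20 lay below 0. SARS1, the seryl enzyme, had the largest gap (-1.80 and -1.90), while HARS1, the histidyl enzyme, was the member above 0 (0.83 and 0.66).

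**Figure D2:**
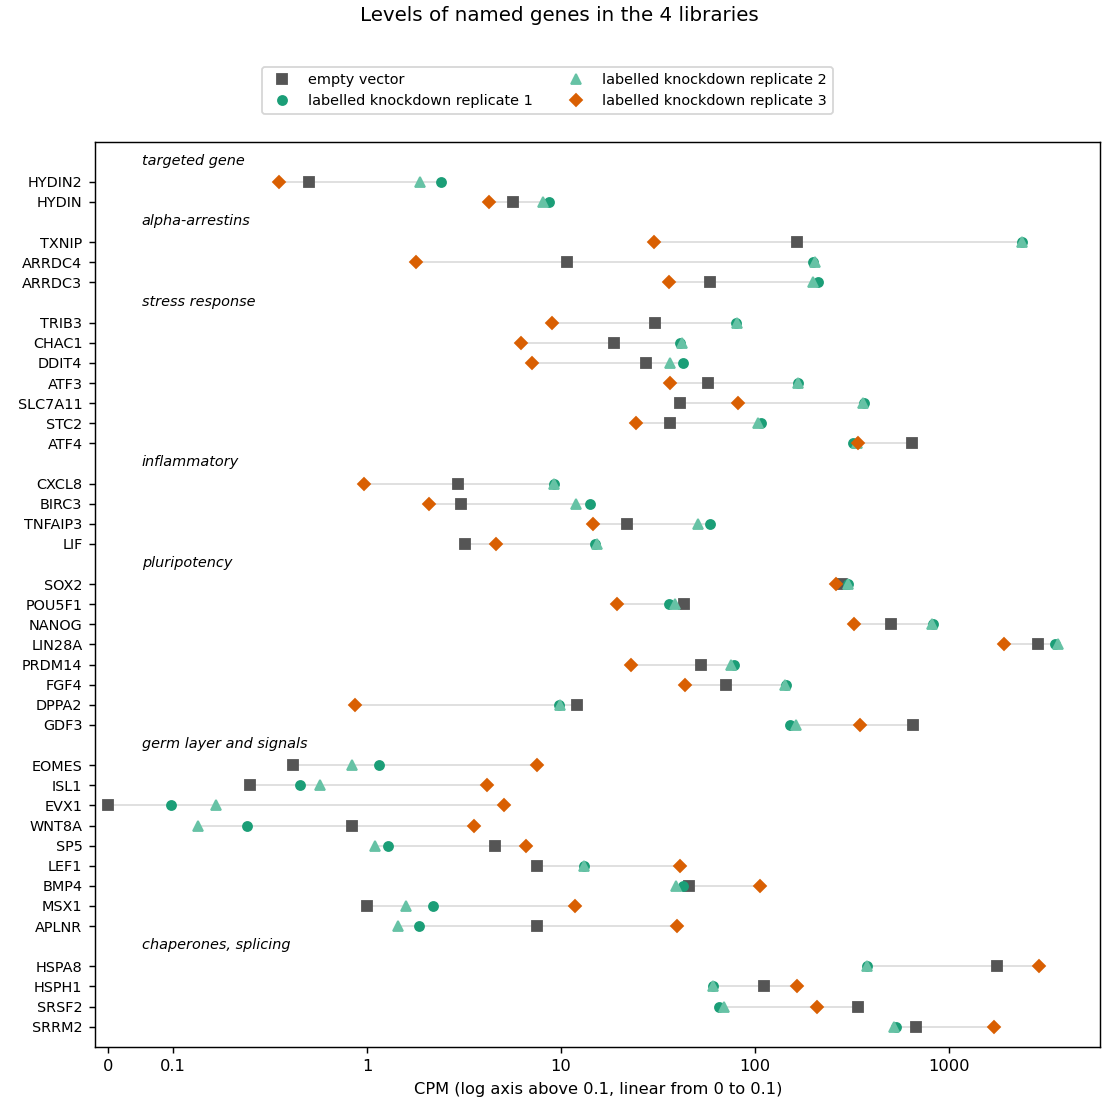
CPM (horizontal, log axis above 0.1) of genes named in the text in the empty vector library (squares), labelled knockdown replicates 1 (circles) and 2 (triangles) and replicate 3 (diamonds). Replicates 1 and 2 overlie each other for most genes. Replicate 3 lies to their left for the plotted arrestin, stress and inflammatory genes other than ATF4. It lies to their right for the plotted germ layer, chaperone and splicing genes. The plotted genes were picked, and lower ones such as FOXA3, FOXC2, CER1, LEFTY1 and WNT4 are not shown. In the lists 6 of 18 mesoderm and endoderm, 4 of 14 heat shock and 4 of 16 SR genes were higher.

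Replication-dependent histone genes, whose messages are made in S phase and end in a stem-loop in place of a poly(A) tail, were lower as a class. Of 65 listed genes 56 were tested, 44 were lower and 0 higher, and all 56 lay below 0, with a median of -1.75. H3C8 stood at 384 CPM with the empty vector, 858 and 979.8 CPM in replicates 1 and 2 and 149 CPM in replicate 3, and H3C2, another H3 gene, at 931 and 1016 CPM in replicates 1 and 2 against 245 CPM in replicate 3. Lower genes were 4 of 5 for linker H1, 13 of 13 for H2A, 9 of 17 for H2B, 9 of 10 for H3 and 9 of 11 for H4. The summed level of the H3 genes was 5093 and 5581 CPM in replicates 1 and 2 and 1258 CPM in replicate 3, with 3524 CPM in the empty vector library. H1-1, H4C6 and H2AC1 had no count in replicate 3, although the empty vector library had 16, 6 and 2. For H1-1 that puts replicate 3 at least 17.9-fold below the other two and for H4C6 at least 19.8-fold, taking 6 counts, or 3 read pairs, as the floor. H2BC21 (-0.20 and -0.47), H4C13 (-0.21 and -0.56) and H2BC18 (-0.32 and -0.44) were nearest to no difference. In 55 of the 56 genes the empty vector library was above replicate 3, and in 15 it was above replicates 1 and 2 as well. Many of these copies have nearly the same coding sequence, so single genes are less certain than the class.

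Other histone and cell cycle lists lay nearer than this class to the shares over all tested genes, 6.79% higher and 13.0% lower. H1-6, a linker histone gene outside the replication-dependent list, was lower (-3.95 and -3.99). Of 11 replacement variants, a list made after the values were seen, 2 were lower, among them the linker histone H1-10 (-1.26 and -1.33). H2AZ1 (-0.15 and -0.22), H2AX (-0.02 and -0.07) and H3-3A (-0.23 and -0.32) were outside the rule. Among 39 DNA replication genes 2 were higher and 1 lower, with a median of 0.08, and among 33 mitosis genes 2 were higher and 4 lower, with a median of -0.45. MKI67, a proliferation marker, was higher, at 372 and 342 CPM in replicates 1 and 2 against 901 CPM in replicate 3. The histone messages are short, with a median annotated length of 503 nt over 53 genes, and short genes were lower in general. After the trends on length and GC content were removed, the median of the histone genes was -1.50, with 37 of 53 lower.

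**Figure D3:**
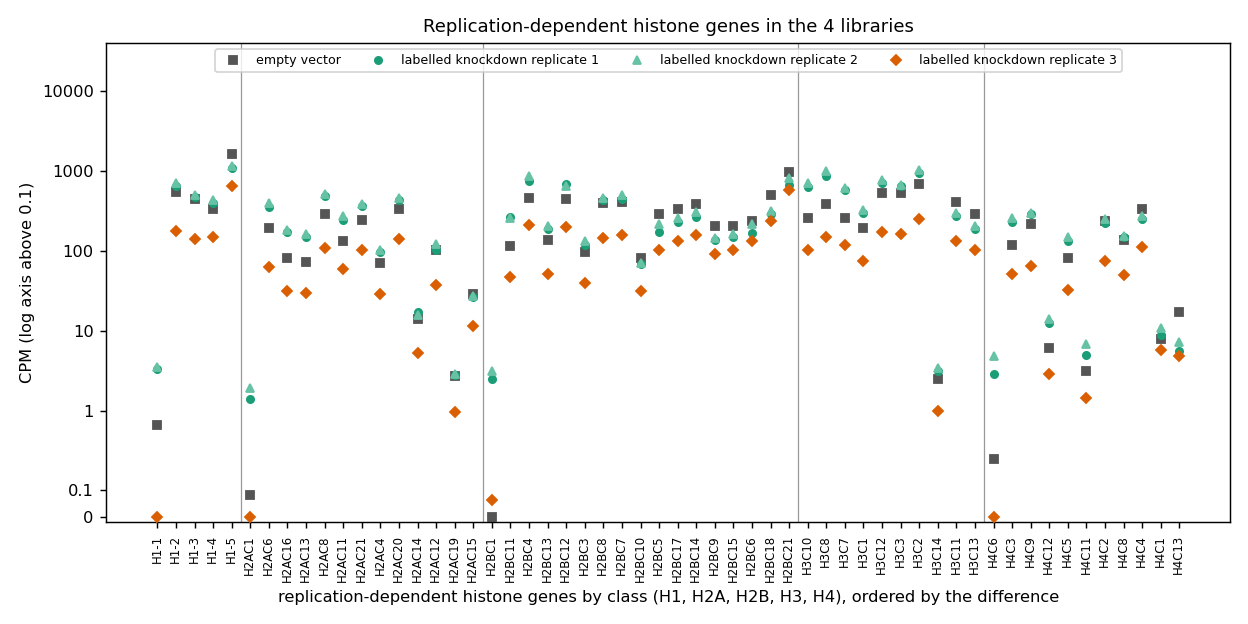
CPM (vertical, log axis above 0.1) of the 56 tested replication-dependent histone genes, in blocks H1, H2A, H2B, H3 and H4 and ordered within a block by the difference, in the 4 libraries. The diamonds of replicate 3 lie below replicates 1 and 2 for all 56 genes, and the empty vector squares lie above the diamonds for 55.

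The identity genes of the line were present in every library, with part of the pluripotency network lower in replicate 3. In such bulk libraries fewer cells of a kind and less RNA per cell cannot be told apart. All 13 embryonal carcinoma markers reached 1 CPM in all 4 libraries, and their summed level ran from 8637 to 10253 CPM, lowest in replicate 3. Of 28 listed pluripotency genes 24 were tested, 8 were lower and 1 higher, with a median of -0.83. SOX2, a core factor, was outside the rule (279 CPM with the empty vector, 299.9 and 299.6 CPM in replicates 1 and 2 and 259 CPM in replicate 3). POU5F1, the other core factor, stood at 42.8 CPM with the empty vector, 35.9 and 38.5 CPM in replicates 1 and 2 and 19.4 CPM in replicate 3, and LIN28A, the RNA-binding protein that blocks let-7, at 2844 CPM with the empty vector, 3513 and 3619.6 CPM in replicates 1 and 2 and 1912 CPM in replicate 3, and both lay less than 2-fold below replicates 1 and 2. NANOG, the third core factor, had 502 CPM with the empty vector, 819.9 and 817 CPM in replicates 1 and 2 and 323 CPM in replicate 3 and was past the rule. POU5F1 and NANOG have processed pseudogene copies that can take their reads, so both levels are uncertain.

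The widest gap of the pluripotency list was that of DPPA2, a developmental pluripotency gene. It stood at 12.1 CPM with the empty vector, 9.73 and 9.85 CPM in replicates 1 and 2 and 0.864 CPM in replicate 3, which put replicate 3 11.3-fold below the other two and also below the empty vector library. NR5A2, a nuclear receptor that drives POU5F1, had -2.28 and -2.16, PRDM14, a repressor of differentiation, -1.76 and -1.72, and TFCP2L1, a naive-state factor, -1.50 and -1.42. FGF4, the autocrine growth factor of these cells, stood at 70.9 CPM with the empty vector, 144 and 142 CPM in replicates 1 and 2 and 43.2 CPM in replicate 3. It headed a list of FGF pathway genes with 5 of 19 lower and 0 higher, among them FGFR4 (-1.09 and -1.16), a receptor, and ETV4 (-1.19 and -1.27), a transcription factor induced by the pathway. GDF3, a NODAL-type ligand, was the higher pluripotency gene, at 653 CPM with the empty vector, 151 and 163 CPM in replicates 1 and 2 and 346 CPM in replicate 3, between replicates 1 and 2 and the empty vector library.

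Some genes of gastrulation were higher in replicate 3, from low levels. Of 30 listed mesoderm and endoderm genes 18 were tested, 6 were higher and 3 lower, with a median of 0.47. Members such as ISL1 reached the minimum of 1 CPM through replicate 3, and at a minimum of 5 CPM 2 of 13 were higher and 2 lower, with a median of 0.08. EOMES, a T-box factor of the primitive streak, stood at 0.417 CPM with the empty vector, 1.16 and 0.838 CPM in replicates 1 and 2 and 7.49 CPM in replicate 3. ISL1, a factor of cardiac progenitors and amnion, had 0.250 CPM with the empty vector, 0.450 and 0.570 CPM in replicates 1 and 2 and 4.13 CPM in replicate 3. MIXL1, of the streak, had log2 differences of 1.33 and 1.61, TBX6, of paraxial mesoderm, 1.68 and 1.35, and HAND1, of extra-embryonic and cardiac mesoderm, 1.08 and 1.18. The lower members included the endoderm factor FOXA3 (-2.43 and -2.62) and the mesoderm factor FOXC2 (-2.65 and -2.51). Among the 15 genes with the widest gap on the higher side were EVX1, a homeobox gene of the posterior streak, with 6 and 10 counts in replicates 1 and 2, 158 in replicate 3 and 0 in the empty vector library, and APLNR, the apelin receptor of early mesoderm, at 7.54 CPM with the empty vector, 1.86 and 1.44 CPM in replicates 1 and 2 and 39.8 CPM in replicate 3.

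More genes of the WNT and BMP pathways were higher than lower. At a minimum of 5 CPM, 3 of 19 WNT genes were higher and 1 lower, and 6 of 20 NODAL and BMP genes were higher and 2 lower. WNT8A, a ligand of the early streak, stood at 0.833 CPM with the empty vector, 0.241 and 0.134 CPM in replicates 1 and 2 and 3.55 CPM in replicate 3. It reached the minimum of 1 CPM through replicate 3. SP5, a direct target and feedback repressor, had 4.58 CPM with the empty vector, 1.28 and 1.11 CPM in replicates 1 and 2 and 6.59 CPM in replicate 3, and LEF1, the pathway's DNA-binding factor, 7.4983 CPM with the empty vector, 13.1 and 13.1 CPM in replicates 1 and 2 and 41.2 CPM in replicate 3. FZD1, a receptor, and NKD1, an inhibitor, had 1.95 and 2.10 and 1.68 and 1.87, so that 5 of 27 tested WNT genes were higher. The ligands WNT4 (-2.08 and -1.90) and WNT10B (-1.47 and -1.43) were lower, and AXIN2, a widely used target, was outside the rule (0.52 and 0.41). In the NODAL and BMP list 8 of 25 tested genes were higher and 3 lower. BMP4, a ligand, stood at 45.5 CPM with the empty vector, 42.4 and 39.0 CPM in replicates 1 and 2 and 106 CPM in replicate 3, and its target MSX1, a homeobox gene, at 1.00 CPM with the empty vector, 2.18 and 1.59 CPM in replicates 1 and 2 and 11.8 CPM in replicate 3. FST, which binds activins, had 1.36 and 1.24. The BMP targets ID1 (-0.39 and -0.50) and ID3 (0.09 and -0.01) were outside the rule. Lower were the NODAL antagonists CER1 (-3.85 and -3.37) and LEFTY1 (-2.59 and -2.49) and the activin subunit INHBE, at 1.17 CPM with the empty vector, 18.4 and 17.0 CPM in replicates 1 and 2 and 0.928 CPM in replicate 3.

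Some chaperones of the cytosol and some splicing factors of the SR family were higher. In the heat shock list 4 of 14 tested genes were higher and 0 lower, with a median of 0.58, and with TMM factors from all genes 2 were higher. HSPA8, the constitutive HSP70, stood at 1750.3 CPM with the empty vector, 376 and 376 CPM in replicates 1 and 2 and 2908 CPM in replicate 3, which was 7.73 times the mean of replicates 1 and 2 and above the empty vector library too. The annotation places 3 other genes within it on the same strand, and how the counting shared those reads is not given. HSPH1, its nucleotide exchange partner, had 111 CPM with the empty vector, 60.9 and 60.4 CPM in replicates 1 and 2 and 164 CPM in replicate 3, and the co-chaperones DNAJA1 and DNAJB1 had 1.07 and 1.07 and 1.05 and 1.06. HSP90AA1 (0.30 and 0.30) and the stress sensor HSF1 (-0.16 and -0.25) were outside the rule. In a list made after the values were seen, 4 of 16 SR splicing factors were higher and 0 lower (2 higher with TMM factors from all genes), with SRSF2 at 339 CPM with the empty vector, 64.8 and 69.3 CPM in replicates 1 and 2 and 208 CPM in replicate 3 and SRRM2, a large speckle protein, at 669 CPM with the empty vector, 529 and 518 CPM in replicates 1 and 2 and 1707 CPM in replicate 3. Also named afterwards, MAT2A, which makes S-adenosylmethionine and is regulated by intron retention, stood at 246 CPM with the empty vector, 47.1 and 47.3 CPM in replicates 1 and 2 and 341 CPM in replicate 3. For HSPH1 and SRRM2 as for HSPA8 and MAT2A, replicate 3 was the highest library, while for SRSF2 the empty vector library was.

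Many inflammatory genes and some of antigen presentation were lower. Among 28 cytokine, chemokine and NF-kB genes 21 were tested, 15 were lower and 1 higher, with a median of -1.36. CXCL8, the neutrophil attractant, stood at 2.96 CPM with the empty vector, 9.2029 and 9.21 CPM in replicates 1 and 2 and 0.960 CPM in replicate 3, BIRC3, an inhibitor of apoptosis, at 3.04 CPM with the empty vector, 14.1 and 11.9 CPM in replicates 1 and 2 and 2.08 CPM in replicate 3, and TNFAIP3, the feedback inhibitor A20, at 21.8 CPM with the empty vector, 58.2 and 50.6 CPM in replicates 1 and 2 and 14.6 CPM in replicate 3. Replicate 3 was the lowest library for all 3. LIF, a cytokine of the IL6 family, had 3.21 CPM with the empty vector, 14.9 and 15.3 CPM in replicates 1 and 2 and 4.61 CPM in replicate 3, and the higher gene was the receptor TNFRSF19 (1.32 and 1.41). In the interferon list 6 of 24 were lower, led by the RNA sensors DDX60 (-2.87 and -2.75) and IFIH1 (-2.38 and -2.14), and 1 was higher, the sensor gene DDX58 (1.22 and 1.93), which had under 2 CPM in every library. In the MHC class I list 4 of 11 were lower, led by the peptide transporter TAP1 (-2.64 and -2.50), and with total counts 1 of 11 was.

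Genes of junctions, cilia and neurons were lower in part. Of 17 epithelial genes tested 7 were lower and 1 higher: ESRP1, an epithelial splicing factor, stood at 58.4 CPM with the empty vector, 63.6 and 67.5 CPM in replicates 1 and 2 and 15.1 CPM in replicate 3, OCLN, of tight junctions, had -1.87 and -1.84, and CDH1, E-cadherin, was outside the rule (0.24 and 0.36). Of 35 primary cilium genes 10 were lower and 0 higher, with BBS7 (-1.73 and -1.67) and BBS4 (-1.50 and -1.60), of the BBSome, and KIFAP3 (-1.55 and -1.57), of the kinesin-2 motor, at the head. Of 21 motile cilium genes tested, 3 were higher, with the dynein heavy chain DNAH2 at 0.167 CPM with the empty vector, 0.273 and 0.201 CPM in replicates 1 and 2 and 3.30 CPM in replicate 3, and 2 lower. DNAH2 reached the minimum of 1 CPM through replicate 3. Of 27 neuronal genes 6 were lower and 1 higher, led by the RNA-binding proteins ELAVL4 (138 and 120 counts against 2, a ratio of 0.0303 with a counting interval of 0.0008 to 0.172) and ELAVL3 (-2.95 and -2.77), while MAP2, of dendrites, had 0.52 and 0.59. ELAVL4 reached the minimum of 1 CPM through replicates 1 and 2. At a minimum of 5 CPM 3 of 21 neuronal genes were lower and 0 higher, beside 1241 lower among all 11754 genes at that minimum. Of 20 neural progenitor genes tested 2 were higher and 4 lower, with 10 above and 10 below 0. One of the lower genes, PAX6, a master factor of neural progenitors, stood at 15.4 and 13.1 CPM in replicates 1 and 2 and 2.95 CPM in replicate 3, with 0 counts in the empty vector library.

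NT2 cells are known for their response to retinoic acid, and genes of its turnover differed. Of 24 listed genes 19 were tested, 5 were lower and 2 higher, also with total counts and with upper quartile factors. At a minimum of 5 CPM 2 of 11 were lower and 0 higher, with a median of -0.12. The retinoic acid hydroxylases, which clear the ligand and are induced by it, were lower: CYP26A1 had 138 and 167 counts in replicates 1 and 2, 10 in replicate 3 and 22 in the empty vector library, and CYP26B1 stood at 3.42 CPM with the empty vector, 1.96 and 2.38 CPM in replicates 1 and 2 and 0.512 CPM in replicate 3. ALDH1A3, which makes the ligand, and DHRS3, which turns retinal back to retinol, had log2 differences of -1.87 and -1.76 and of -1.36 and -1.39. The higher members included the nuclear receptor NR2F2, at 0.916 CPM with the empty vector, 2.96 and 2.31 CPM in replicates 1 and 2 and 7.04 CPM in replicate 3. The receptor genes RARA (-0.21 and -0.03) and RARB (0.46 and 0.52) were outside the rule.

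Genes of extracellular matrix, oxidative stress and sterol handling were each found on both sides. In the matrix and adhesion list 7 of 31 tested genes were lower and 3 higher. LAMA3, a chain of the epithelial laminin, was lower at 2.08 CPM with the empty vector, 4.55 and 5.01 CPM in replicates 1 and 2 and 0.608 CPM in replicate 3, while LAMA1, of the embryonic laminin, stood at 32.9 CPM with the empty vector, 28.6 and 25.2 CPM in replicates 1 and 2 and 71.9 CPM in replicate 3 and was higher. HAS2, hyaluronan synthase, was higher at 14.1 CPM with the empty vector, 3.71 and 2.76 CPM in replicates 1 and 2 and 12.4 CPM in replicate 3. In the oxidative stress list 4 of 17 tested genes were higher and 1 lower, with a median of 0.02 that TMM factors from all genes moved to -0.06. Of its 4 metallothioneins, which bind zinc and copper and were picked out after the values were seen, 3 were higher, with MT2A at 201 CPM with the empty vector, 33.7 and 35.0 CPM in replicates 1 and 2 and 136 CPM in replicate 3, MT1E at 44.0 CPM with the empty vector, 12.3 and 14.9 CPM in replicates 1 and 2 and 60.7 CPM in replicate 3 and MT1X at 1.26 and 1.13 on the log2 scale, and MT1F (0.03 and -0.28) was outside the rule. MT1A and MT1M, which are not in the list, had 0.52 and 0.40 and 1.04 and 0.24. Their coding sequences are close to each other, so single members are uncertain. In the cholesterol list 2 of 27 were higher and 2 lower. In the list of glycolysis and hypoxia genes 7 of 32 were lower and 0 higher (4 lower when scaled by total counts), among them the growth factor VEGFA at 18.2 CPM with the empty vector, 36.4 and 34.9 CPM in replicates 1 and 2 and 14.6 CPM in replicate 3. The glycolytic enzymes themselves were mostly outside the rule, GAPDH with -0.29 and -0.47 and PKM with 0.30 and 0.28.

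Trophoblast, amnion and muscle genes were mixed as well. In the trophoblast and amnion list 4 of 14 tested genes were higher and 3 lower. The higher members ISL1 and HAND1 were also counted in the mesoderm and endoderm list. At a minimum of 5 CPM 2 of 11 were higher and 3 lower, with a median of 0.14. TFAP2A, a factor of amnion and surface ectoderm, stood at 4.54 CPM with the empty vector, 15.1 and 13.6 CPM in replicates 1 and 2 and 70.3 CPM in replicate 3, and CDX2, of trophectoderm, had 1.53 and 1.91, whereas TFAP2C, of trophoblast and germ cells, was lower (-1.42 and -1.37). Of 22 muscle genes 3 were higher, the atrial light chains MYL4 (0.583 CPM with the empty vector, 0.386 and 0.871 CPM in replicates 1 and 2 and 7.68 CPM in replicate 3) and MYL7 (1.0026 and 1.60) and cardiac actin ACTC1 (2.52 and 2.21), and 4 lower, among them CNN1, a calponin of smooth muscle (-2.06 and -2.02). MYL4 reached the minimum of 1 CPM through replicate 3. With TMM factors from the 3 labelled knockdown libraries alone 2 muscle genes were higher, and at a minimum of 5 CPM 1 of 13 was higher and 2 lower. Of 14 germ cell genes tested 4 were lower and 1 higher, with DAZL, an RNA-binding protein of germ cells, at -2.43 and -2.38 and PIWIL1, a piRNA-binding protein, at -1.89 and -2.06.

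**Figure D4:**
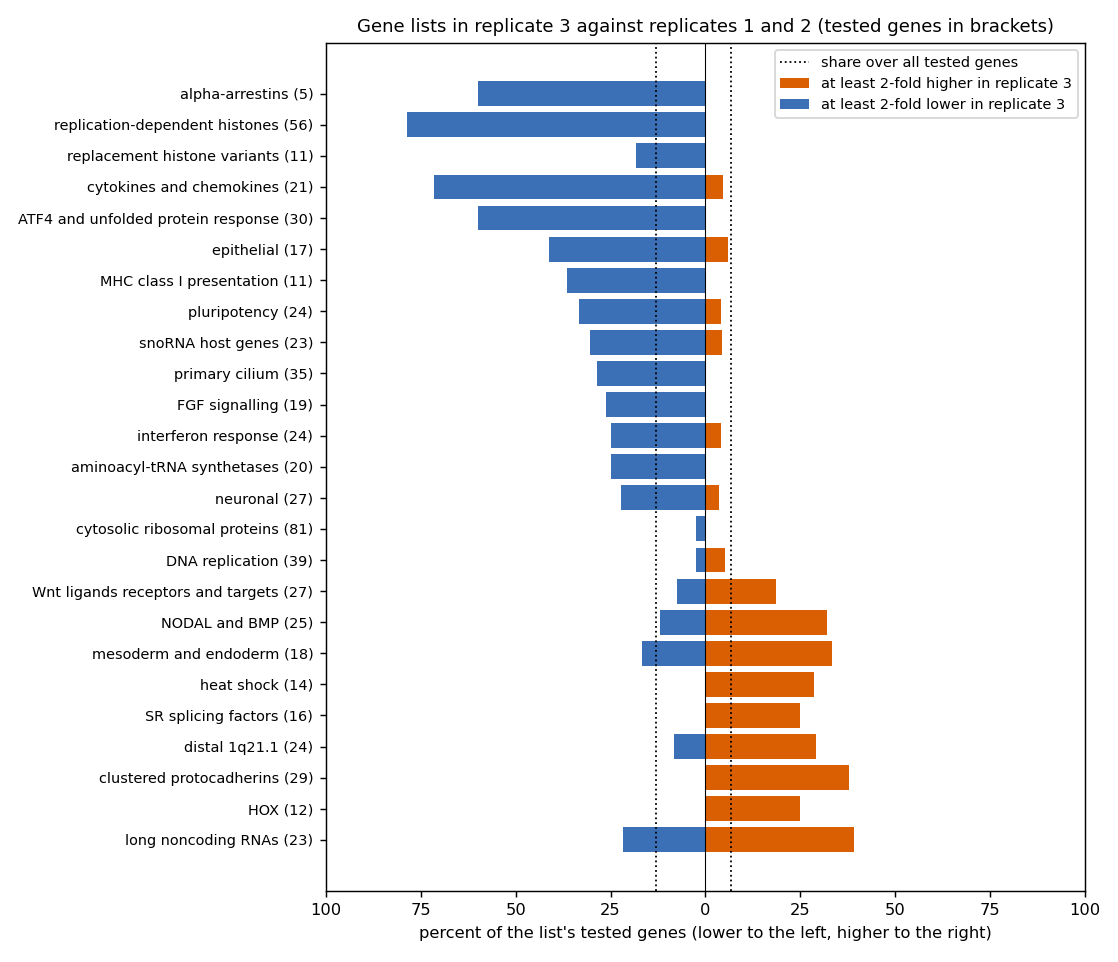
Percent of the tested genes of 25 gene lists (number tested in brackets) that were at least 2-fold higher (right) or lower (left) in replicate 3 than in both other labelled knockdown libraries. Dotted lines mark the shares over all 16001 genes, 6.79% and 13.0%; the histone and cytokine lists reach furthest to the left and the protocadherin and long noncoding RNA lists furthest to the right.

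The widest gaps on the lower side, beside the arrestins and histones, included tissue-restricted genes. SOX14, a neural SOX factor, had 628 and 595 counts in replicates 1 and 2, 0 in replicate 3 and 12 in the empty vector library, so replicate 3 was at least 52.2-fold lower at the floor of 6 counts. CD36, a fatty acid receptor, had 454, 406, 4 and 20 counts in the same order, and DHRS2, a short-chain dehydrogenase, 417, 391, 2 and 8. SYT4, a synaptotagmin of secretory vesicles, had -5.15 and -5.33, and SAMSN1, an adaptor of lymphocytes, -5.19 and -5.33. MMP1, interstitial collagenase, had 997 and 835 counts against 14, and 0 in the empty vector library. In each of these genes except MMP1 the empty vector library lay between replicate 3 and the other two, and 9 of the 2082 lower genes had no count at all in replicate 3. On the higher side TAGAP, a GTPase-activating protein of T cells, stood at 2.00 CPM with the empty vector, 0.594 and 0.536 CPM in replicates 1 and 2 and 17.2 CPM in replicate 3.

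RNA classes other than protein-coding differed in their balance. Among 13378 protein-coding genes 590 were higher (4.41%) and 1651 lower (12.3%). The order was turned round in the annotation class TEC, loci whose transcript evidence is incomplete, with 39 of 94 higher and 6 lower, in sense-intronic RNAs, with 25 of 78 higher and 2 lower, and in processed pseudogenes, with 62 of 237 higher and 21 lower. Antisense genes had 135 of 701 higher and 96 lower. Small nuclear RNAs went the other way, with 10 of 22 lower and 0 higher, and so did RN7SL1, the RNA of the signal recognition particle, which has near-identical copies, at 3387 CPM with the empty vector, 2757 and 3400.4 CPM in replicates 1 and 2 and 1130.3 CPM in replicate 3. The balance moved with expression level as well, when the tested genes were cut into 5 groups by mean CPM over the 3 libraries. In the lowest group (up to 3.18 CPM) 543 of 3201 genes were higher and 643 lower. In the highest group 67 of 3200 were higher and 208 lower. The classes were not compared at equal level, so the part of level in their balance was not tested. Among named long noncoding RNAs 9 of 23 were higher and 5 lower, and with the trends on length and GC content removed 4 were higher and 5 lower. PCAT14, a long noncoding RNA of prostate cancer, stood at 283 CPM with the empty vector, 92.9 and 87.4 CPM in replicates 1 and 2 and 1003 CPM in replicate 3, and NEAT1, the scaffold of paraspeckles, at 14.0 CPM with the empty vector, 19.5 and 26.0 CPM in replicates 1 and 2 and 76.3 CPM in replicate 3. Lower were LINC-ROR (-3.05 and -2.67), a pluripotency transcript, and SNHG1, a host of small nucleolar RNAs, at 236 CPM with the empty vector, 911 and 1008 CPM in replicates 1 and 2 and 167 CPM in replicate 3. In a list of such hosts, made after the values were seen, 7 of 23 were lower and SNHG5 was higher (20.6 CPM with the empty vector, 6.87 and 7.07 CPM in replicates 1 and 2 and 31.1 CPM in replicate 3).

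Transcript length moved with the difference. With the tested genes cut into 5 equal groups from the shortest to the longest transcript, the medians were -0.43, -0.31, -0.18, -0.07 and 0.07, and the share lower was 20.4% in the shortest and 8.08% in the longest. Replicate 2 minus replicate 1 gave 0.10 in the shortest and -0.05 in the longest group, which is the opposite direction and smaller. The part of length, depth or RNA quality in these differences was not tested. With trends on length and GC content removed, 994 of 15592 genes were higher and 1896 lower, of which 863 and 1722 were past the rule before.

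**Figure D5:**
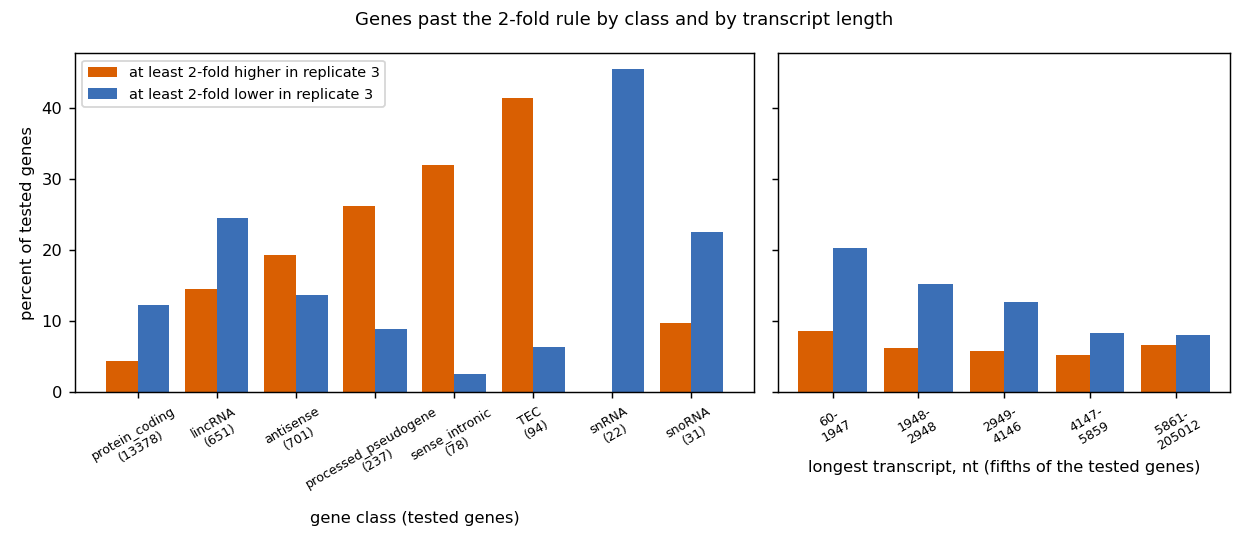
Percent of tested genes at least 2-fold higher (orange) or lower (blue) in replicate 3 than in replicates 1 and 2, by gene class with the number tested (left) and by longest transcript length in nt, in 5 equal groups (right). Higher genes outnumber lower ones in the antisense, processed pseudogene, sense-intronic and TEC classes, and the lower share falls from 20.4% to 8.08% from the shortest to the longest group.

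Among clustered protocadherins, cell-surface proteins chosen stochastically by neurons, 11 of 29 tested genes were higher and 0 lower, with a median of 0.74. PCDHB5 stood at 24.7 CPM with the empty vector, 19.4 and 19.6 CPM in replicates 1 and 2 and 49.8 CPM in replicate 3, and 25 of the 29 were under 10 CPM in all 4 libraries. Members such as PCDHB9 (0.803 and 0.771 CPM in replicates 1 and 2, 2.46 CPM in replicate 3) reached the minimum of 1 CPM through replicate 3. The share of higher genes in this list thus depends in part on that minimum. In a list of genes of 1q21.1, the region of HYDIN2, 7 of 24 tested genes were higher and 2 lower. NBPF20 had 4.50 CPM with the empty vector, 2.68 and 2.23 CPM in replicates 1 and 2 and 17.0 CPM in replicate 3, NBPF12 had 1.62 and 1.59, and NOTCH2NLC, a human-specific NOTCH2 copy, had 4.33 CPM with the empty vector, 7.97 and 8.29 CPM in replicates 1 and 2 and 21.1278 CPM in replicate 3; HYDIN2 was 1 of the 2 lower genes. These families share long stretches of sequence, so counts of single members are uncertain. The list is not the whole region and leaves out TXNIP. In the 10-Mb window of chromosome 1 that holds HYDIN2 and TXNIP, 5 of 60 tested genes were higher and 11 lower, with a median of -0.34. Of 12 tested HOX genes 3 were higher and 0 lower, among them HOXD13 and HOXD11. The 39 listed HOX genes summed to only 32.6 CPM with the empty vector, 23.3 and 24.3 CPM in replicates 1 and 2 and 60.2 CPM in replicate 3. At such levels the minimum of 1 CPM favours members high in replicate 3, and how many passed through it was not counted. By chromosome the median ran from -0.38 on chromosome 6, which holds the main histone clusters (-0.32 without histone genes), to -0.02 on chromosome 21, and over 289 windows of 10 Mb from -0.97 to 0.30.

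Several large families were near the background or showed small shared shifts. Of 81 cytosolic ribosomal protein genes 2 were lower and 0 higher, with a median of -0.60, and of 77 nuclear respiratory chain genes 4 were lower and 1 higher, with a median of -0.57. Without replicate 1 the ribosomal genes had 13 lower and 1 higher, and the respiratory chain genes 9 lower. None of the 13 protein genes of mitochondrial DNA passed the rule (median 0.15). Of 477 genes named ZNF, zinc finger factors, 21 were higher and 19 lower, with a median of 0.11. Of 17 Notch genes 1 was higher and 1 lower, and of 25 p53 targets 3 were lower and 0 higher, with a median of -0.48. Each list shown in the plot of list shares kept the sign of its median under every scaling except DNA replication, which went from 0.08 to -0.0039 with TMM factors from all genes.

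Marker genes of other cell types differed among the libraries as well. Summed over 16 fibroblast markers the level was 2779 and 2632 CPM in replicates 1 and 2, 2199 CPM in replicate 3 and 1267 CPM in the empty vector library, with 1 of 14 tested genes higher, COL3A1 at 0.739 and 0.570 CPM in replicates 1 and 2 against 6.21 CPM in replicate 3, and 5 lower. COL3A1 reached the minimum of 1 CPM through replicate 3, and at a minimum of 5 CPM 0 of 12 fibroblast markers were higher and 4 lower. Blood markers summed to between 27.3 and 66.8 CPM, and 4 of 14 had no count in replicates 1 and 2 and 6 had none in replicate 3. All 4 tested blood markers lay below 0, with 2 lower and a median of -0.80. The endothelial sum ran from 169 to 357 CPM, and all 9 tested endothelial markers lay below 0, with 2 lower, 0 higher and a median of -0.74. Their part in the differences was not tested.

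The genes past the rule were also set beside the empty vector library. Of the 1086 higher genes, the empty vector library lay nearer to replicate 3 for 257 (23.7%), and of the 2082 lower genes for 822 (39.5%). It lay within 2-fold of replicate 3 and of neither replicate 1 nor replicate 2 for 141 higher and 529 lower genes. It lay within 2-fold of both replicates 1 and 2 and not of replicate 3 for 564 and 824. Genes chosen because replicate 3 differs favour the second outcome. The empty vector level lay between for 680 higher and 1455 lower genes, beyond replicates 1 and 2 for 329 and 340, and beyond replicate 3 for 77 and 287. TXNIP, ARRDC4 and TRIB3 belong to the genes where it lay between, and SLC7A11, LIF, GDF3 and SRSF2 to those where it was beyond replicate 3.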

How the data were processed

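Total RNA of 4 NT2 libraries was sequenced after ribosomal RNA depletion, per the labels' protocols. The authors deposited raw read counts per gene for 62696 genes, and the submitters' processing notes name STAR 2.7.11b, featureCounts 2.0.6, DESeq2 and the build GRCh38, without saying which step gave which file. Samples were grouped by their titles. Most counts (65.2% to 68.0%) were even numbers, so both reads of a pair seem to have been counted, and 95% counting intervals were computed on halved counts. Intervals and the floor of 6 counts (3 read pairs) cover counting error only. Gene classes, positions and lengths came from GENCODE 29 (GRCh38), matched by identifier for 58269 genes.

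Library sizes were scaled by TMM factors (edgeR 4.0.16) from 26029 genes kept by its filter on low counts (factors 0.953, 0.990, 0.969 and 1.094 for the empty vector and replicates 1, 2 and 3), and log2 CPM used a prior count of 2. TMM factors from all genes had been computed first, and the filtered ones were adopted after that result was seen. The comparison holds 1 library against 2, so no test was run. The steps were tested on simulated data. The alternatives were other scalings (among them DESeq2 1.42.0 size factors), prior counts, CPM minimums, fold rules, thinning to equal depth, removal of trends on length and GC content, and leaving out replicate 1 or 2.

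The genes and lists were chosen with earlier results of these data known. Named genes were the 15 widest gaps and the 8 highest CPM values in each direction, up to 6 members of each list in each direction with defining members given by value, the 2 genes on each side of the threshold, and genes of runs of neighbours. HARS1, LAMP1, LIF, H3C2, MAT2A and the remaining names outside these rules, and 6 lists added to the first 63, were chosen after their values were seen. Some genes that these rules name are not reported here. Promoter sequences came from RefSeq (GRCh38.p14).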

Additional observations from a re-analysis of the deposited data

How the results depend on the processing

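The numbers of higher and lower genes moved most with the minimum level and the fold rule: 4251 and 3577 of 27060 genes at a mean of at least 0.1 CPM, 428 and 1241 of 11754 at 5 CPM, 2428 and 4190 with a 1.5-fold rule and 184 and 441 with a 4-fold rule. With protein-coding genes alone 590 were higher. Without replicate 1 or replicate 2 there were 1269 to 1316 higher and 2259 to 2417 lower genes. With replicates 1 and 2 thinned to the total of replicate 3, 1086 were higher and 1981 lower, of which 1003 and 1921 were past the rule before. Size factors of DESeq2 gave 1138 and 1989, and a median difference set to 0, an alternative added after seeing the data as were the TMM factors from all genes, 1468 and 1606. The median of small nucleolar and Cajal body RNAs reversed from -0.61 to 0.41 at 0.1 CPM, where many more of them were tested. None of the 409 genes past the rule that the naming rules took changed direction under the alternatives run, and at most 51 were no longer past it, with the length and GC trends removed. These genes were chosen for differences of at least 2-fold, and the scalings moved the median of all genes only between -0.25 and 0.04. A change of direction was thus hardly possible for them. Values near 0 did turn: ATF4 from 0.0552 to -0.0264 with TMM factors from all genes and H2AX from -0.0480 to 0.1120 with total counts. No paired analysis was possible because the comparison is of 1 library with 2 of the same group and the empty vector library carries no replicate number. Few counts in replicate 3 limit the precision of low genes.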

Other observations

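Some of the genes past the rule were neighbours. Runs in which at least 4 of 5 consecutive tested genes were past the rule in the same direction numbered 30, of which 23 were lower and 7 higher in replicate 3. The largest were the histone clusters of chromosome 6, with 22 of 27 and 15 of 20 tested genes lower. On chromosome 12, 8 of 10 genes from LRP1 to DDIT3 were lower, among them the stress-responsive SHMT2, INHBE and DDIT3 and the methionyl-tRNA synthetase MARS1 (446 and 482 CPM in replicates 1 and 2 against 188 CPM in replicate 3). On chromosome 7, TFEC, TES, CAV2 and CAV1 stood together, with TES, a focal adhesion protein, at 74.4 CPM with the empty vector, 238 and 245 CPM in replicates 1 and 2 and 33.1 CPM in replicate 3 and the caveolin CAV1 at 78.0 CPM with the empty vector, 275 and 251 CPM in replicates 1 and 2 and 74.2 CPM in replicate 3. The chemokines CXCL8, CXCL6, CXCL1 and CXCL3 formed a run on chromosome 4, and APOBEC3C, APOBEC3F, APOBEC3G, CBX7 and PDGFB on chromosome 22, with the growth factor PDGFB at 42.1 and 39.4 CPM in replicates 1 and 2 against 6.47 CPM in replicate 3. The higher runs included 6 of 8 genes of the protocadherin beta cluster. With 13.0% of all tested genes lower, such runs also arise where genes are scattered, and how many that would give was not computed. Many runs hold overlapping or antisense genes.

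The MiT/TFE factors, which control lysosomal genes, were lower while most lysosomal genes were not, in a list made after the values were seen. TFEB stood at 1.08 CPM with the empty vector, 4.24 and 3.55 CPM in replicates 1 and 2 and 0.192 CPM in replicate 3, TFE3 at 138 CPM with the empty vector, 409.8 and 417 CPM in replicates 1 and 2 and 112 CPM in replicate 3, and MITF had log2 differences of -1.45 and -1.18. Of all 30 genes in the list 7 were lower and 1 higher, with a median of -0.17, which upper quartile factors moved to 0.04. LAMP1, of the lysosomal membrane, had 0.17 and 0.09, and the peptidase TPP1 was the higher gene (1.06 and 1.08).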
